A study of Mus musculus with 8 samples.

Results

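The genes described here are the glucose transporters Slc2a1 and Slc2a3, the hexokinases Hk1, Hk2 and Hk3, the phosphofructokinases Pfkl and Pfkp, the phosphoglycerate mutase Pgam1, the pyruvate kinase gene Pkm and the lactate dehydrogenase gene Ldha. They were chosen by name, and all 10 were found among the 12830 genes counted and passed the filter on low counts. Glycolysis turns glucose into pyruvate in the cytosol. Glucose enters through transporters of the Slc2a family, a hexokinase traps it as glucose 6-phosphate, phosphofructokinase commits it to the pathway, and pyruvate kinase and lactate dehydrogenase close it. Most of these steps have several isoforms from separate genes that differ in affinity, regulation and tissue, and neutrophils and their precursors are known to rely heavily on glycolysis.

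Transcripts were sequenced in AML410, a mouse acute myeloid leukaemia of monosomal karyotype on the C57BL/6 background. The cells lack p53 and carry a short hairpin RNA against PU.1, the myeloid transcription factor encoded by Spi1, on a construct that also makes green fluorescent protein (GFP). Doxycycline (Dox) given to leukaemic recipient mice shuts the hairpin off, so that endogenous PU.1 returns stepwise. GFP-positive bone marrow cells were sorted by flow cytometry in 4 groups of 2 libraries each. Untreated mice gave cells of high GFP, mice after 2 days of Dox gave high to intermediate GFP, mice after 4 days gave intermediate GFP and mice after 6 days gave low GFP. All groups therefore share the p53 deletion and the hairpin construct, all come from a single leukaemia, and the day of Dox and the GFP gate cannot be told apart. Titles name the libraries of a group as technical replicates, but the design text names mice in duplicate, so p-values measure only the spread between these libraries, which may be technical.

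Libraries held 9262047 to 11213292 counts. In day 2 replicate 1 a single gene without a symbol took 13.3% of the counts, so results at day 2 were also computed without that library. Spi1, the target of the hairpin, stood at 8.34 and 12.9 CPM (counts scaled to a common library size) in untreated libraries, 14.8 and 15.6 CPM at day 2, 94.0 and 103 CPM at day 4 and 217 and 229 CPM at day 6. The myeloid label was checked with 10 markers of leukaemia and myeloid identity, all counted. They summed to 11606 and 10261 CPM in untreated libraries and 14514 and 13844 CPM at day 2. The sum was 10033 and 9888 CPM at day 4 and 7144 and 7256 CPM at day 6. It mixes directions, with 3 called higher (Spi1, Ptprc and Itgam) and 4 lower (Kit, Myb, Elane and Prtn3) at day 6. Of all genes, 32% were called higher and 31.6% lower at that day. Markers of mature cells moved strongly. The 10 neutrophil markers summed to 2873 and 1982 CPM in untreated libraries, 5015 and 3154 CPM at day 2, 7975 and 11674 CPM at day 4 and 41730 and 51936 CPM at day 6. The 10 monocyte and macrophage markers summed to 587 and 500.1 CPM in untreated libraries, 818 and 994 CPM at day 2, 4135 and 4207 CPM at day 4 and 4551 and 4326 CPM at day 6, with Ms4a7 at 0 in untreated libraries. The 10 B cell markers stayed between 11.9 and 139 CPM in sum over all libraries, and the 6 erythroid markers counted summed to 64.5 CPM at most, with 5 of the 6 called higher at day 6.

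Fold changes below are on the log2 scale with their standard error (SE), Dox over untreated or the later over the earlier day. A gene was called where edgeR's quasi-likelihood test, fitted over all 8 libraries, gave a Benjamini-Hochberg adjusted p under 0.05 over 12330 genes. At day 2 none of the 10 genes was called by edgeR against untreated cells, where 6.13% of all genes were called, 4.18% higher and 1.95% lower. Of the 10, 3 had an unadjusted p under 0.05 at day 2 (Hk1, Pkm and Ldha). The share of all genes under that cut was not computed, so this count is not read as a result. DESeq2 called 2 of the 3 higher at day 2 (Pkm and Ldha), where it called 537 of all genes higher and 160 lower. At day 4, 4 genes were called higher (Slc2a3, Hk2, Pfkp and Pkm) and 1 lower (Hk1) than in untreated cells, with 48% of all genes called, 26.1% higher and 22% lower. At day 6, 5 were higher (Slc2a3, Hk2, Hk3, Pfkp and Pkm) and 2 lower (Pfkl and Pgam1), with 63.6% of all genes called, 32% higher and 31.6% lower. The share of members called is thus close to that of all genes at days 4 and 6. The median log2 change of the 10 was 0.23 at day 4 and 0.33 at day 6, against -0.02 and -0.04 over all genes tested. Slc2a1 and Ldha were called neither at day 4 nor at day 6 against untreated cells. Comparisons with untreated cells share the same 2 untreated libraries.

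**Figure D1:**
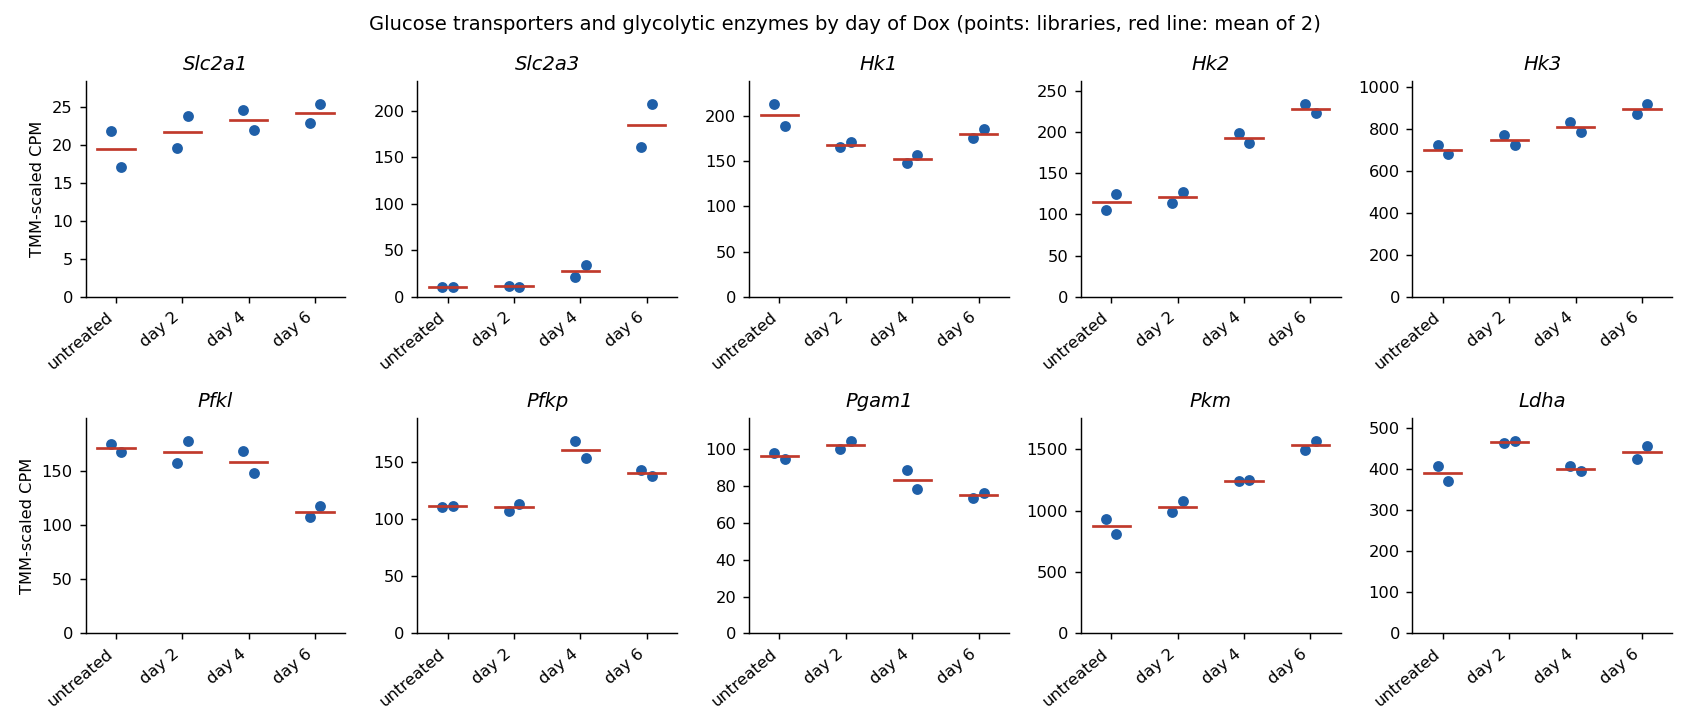
TMM-scaled CPM (vertical axes, starting at 0) of the 10 genes in each of the 8 libraries by day of Dox, with blue points for libraries and red lines for the mean of 2. Slc2a3 stands at 161 and 207 CPM at day 6, against 9.88 and 10.4 CPM in untreated libraries.

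The upstream sequences of the 3 hexokinase genes are shown because their enzymes carry out the same step and their levels differed in direction or size over the Dox course. Whether the same cells express all 3 cannot be read from these bulk libraries. They come from the 250 bases upstream of annotated starts in RefSeq (GRCm38.p6), each on the minus strand and read 5′ to 3′. Bases in the gene's own annotated exons were left out, as were bases inside its RefSeq span where that span ends in the window. This kept 129 bases for the inner start of Hk1 and 160 bases for Hk3. The 129 bases lie inside the Hk1 span (62268855 to 62379920), so they can be transcribed from the outer start. The outer start of Hk1, with 238 bases at chr10:62379921-62380158, held neither motif and is not printed. Capitals mark GAGGAA, the core that PU.1 and other ETS factors bind, or ACGTG, the core of hypoxia response elements, or their reverse complements TTCCTC and CACGT.
Hk1, inner start, chr10:62340543-62340671: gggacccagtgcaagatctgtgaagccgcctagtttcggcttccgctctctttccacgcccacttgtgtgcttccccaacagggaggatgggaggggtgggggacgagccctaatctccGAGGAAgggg
Hk2, chr6:82774455-82774704: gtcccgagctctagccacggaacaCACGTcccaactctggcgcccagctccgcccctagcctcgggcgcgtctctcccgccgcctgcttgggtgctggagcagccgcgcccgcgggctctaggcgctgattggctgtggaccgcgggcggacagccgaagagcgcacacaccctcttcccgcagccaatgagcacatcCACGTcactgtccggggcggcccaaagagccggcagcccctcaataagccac
Hk3, chr13:55021476-55021635: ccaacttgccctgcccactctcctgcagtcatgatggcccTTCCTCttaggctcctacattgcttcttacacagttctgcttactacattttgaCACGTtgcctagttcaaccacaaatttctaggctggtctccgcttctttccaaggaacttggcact
The set of promoter windows used held 9 of the 10 genes, in 12 windows of 250 upstream bases. Slc2a3 has a RefSeq gene span but had no window in that set. GAGGAA lay in 3 of the 12 windows (a start of Hk1, Hk3 and Pgam1) and in 23.3% of 32851 promoter windows of the same length. ACGTG lay in 6 of the 12 windows (Slc2a1, Hk2, Hk3, Pgam1, a start of Pkm and a start of Ldha) and in 16.6% of all windows. CACGTG, the E-box, which contains ACGTG on both strands, lay in 1 of the 12 windows (Ldha) and in 6.02% of all. A match describes letters in a window and is not evidence that a factor binds there.

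Slc2a3 encodes GLUT3, a high-affinity glucose transporter (chromosome 6, 122727809 to 122802363, GRCm38). Its level was 9.88 and 10.4 CPM in untreated libraries, 11.5 and 10.9 CPM at day 2, 21.6 and 34.4 CPM at day 4 and 161 and 207 CPM at day 6. The day 6 values rest on 1434 and 1918 counts, the untreated values on 116 and 124 counts. Both day 4 libraries lay above all libraries of untreated cells and day 2, and both day 6 libraries lay above every other. The log2 change was 0.14 ± 0.25 at day 2 (adjusted p = 0.791, edgeR), 1.46 ± 0.21 at day 4 (adjusted p = 0.000186, edgeR) and 4.18 ± 0.20 at day 6 (adjusted p = 9.86e-09, edgeR), an 18.2-fold rise at day 6. Slc2a3 rose at each later step too, 2.50-fold at day 4 over day 2 (adjusted p = 0.000604, edgeR) and 6.60-fold at day 6 over day 4 (adjusted p = 6.96e-06, edgeR). All 10 neutrophil markers were called higher at day 6 than in untreated cells, where 32% of all genes were called higher. The markers summed to 41730 and 51936 CPM at day 6, against 2873 and 1982 CPM in untreated libraries. The part of mature cells in the change of Slc2a3 was not tested. In these bulk libraries a change in the share of cells that express a gene and a change of RNA per cell cannot be told apart.

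Slc2a1 encodes GLUT1, the widely expressed transporter for basal glucose uptake (chromosome 4, 119108745 to 119137330). It had 21.8 and 17.1 CPM in untreated libraries, 19.6 and 23.9 CPM at day 2, 24.6 and 22.0 CPM at day 4 and 23.0 and 25.4 CPM at day 6. The day 2 and untreated libraries overlapped, and the day 4 and day 6 libraries overlapped each other and lay just above both untreated ones. The change at day 6 was 0.32 ± 0.15 and missed the threshold (adjusted p = 0.0813, edgeR); scaling by total counts turned it to -0.12, also not called. Without untreated replicate 1, the change was 0.45 at day 4 (adjusted p = 0.0375, edgeR) and 0.50 at day 6 (adjusted p = 0.0188, edgeR), both past the threshold.

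Per kilobase of the deposited gene length, which puts the genes on a common scale, Slc2a3 was the more abundant of the pair at day 6 and Slc2a1 in untreated cells. Slc2a1 averaged 9.40 ± 0.67 CPM per kb at day 6 and 7.56 ± 1.29 CPM per kb in untreated libraries (SD, n = 2 each). Slc2a3 averaged 46.6 ± 8.18 CPM per kb at day 6 and 2.56 ± 0.09 CPM per kb in untreated libraries. The Slc2a3 share of the summed level of both genes was 22.7% and 28.3% in untreated libraries, 27.7% and 22.8% at day 2, 36.3% and 50.4% at day 4 and 82.0% and 84.1% at day 6. Of the isoform families described here, this pair had another leading gene at day 6 than in untreated cells, as did the phosphofructokinases described below. The summed level of both transporters averaged 10.1 ± 1.20 CPM per kb without Dox, then 11.3 ± 1.05 at day 2, 16.1 ± 1.59 at day 4 and 56.0 ± 8.85 at day 6.

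**Figure D2:**
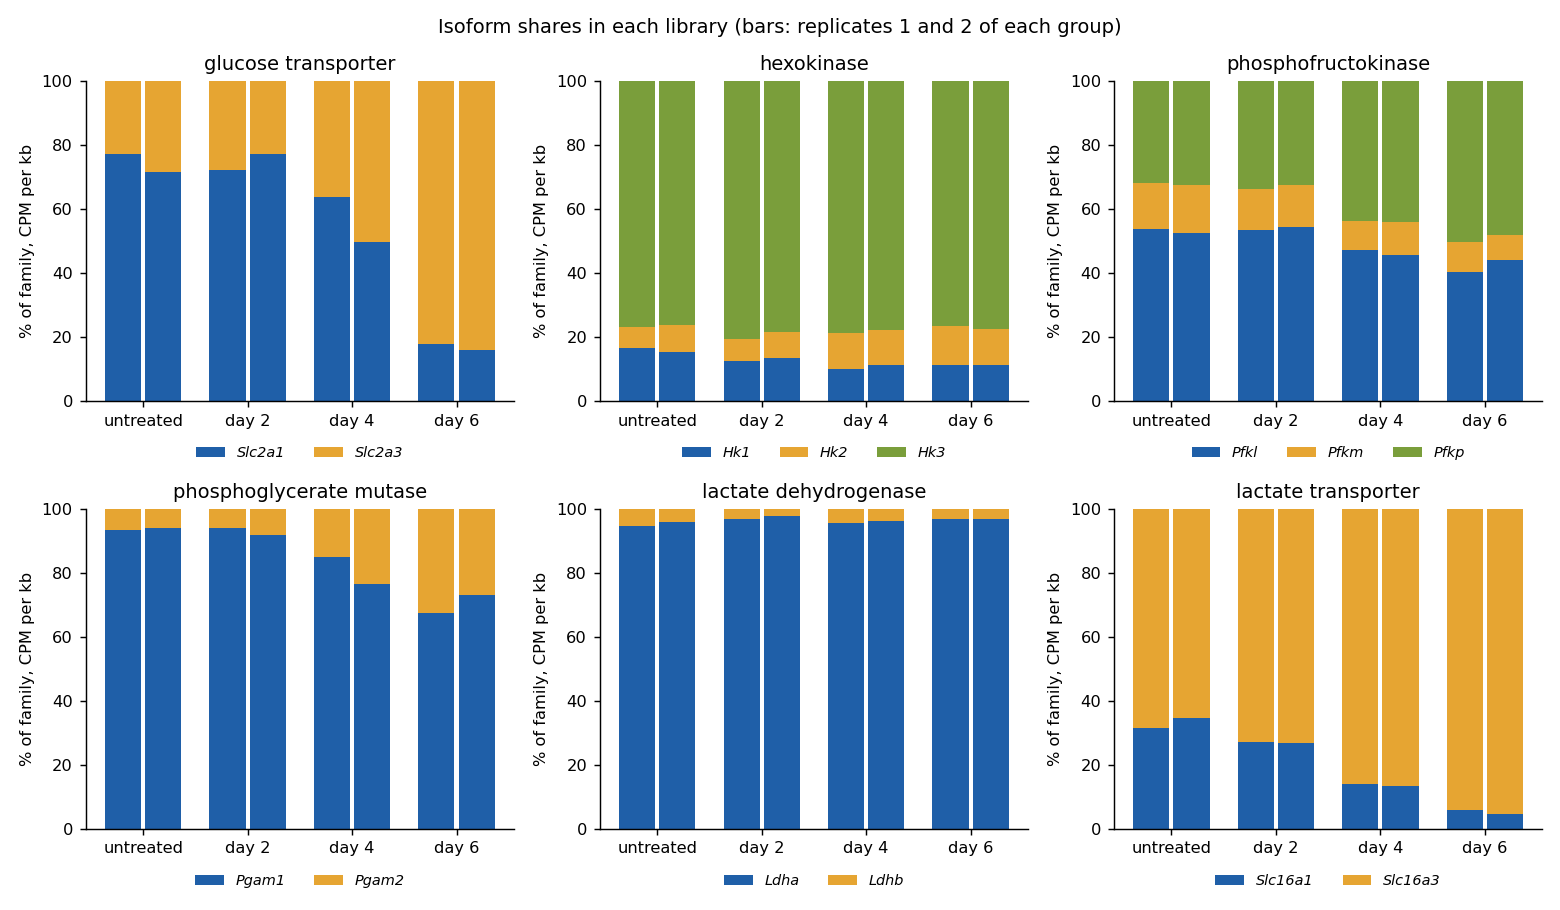
Share of each isoform in the summed CPM per kb of its family (vertical axis, percent) in each library by day of Dox, with replicates 1 and 2 as adjacent bars and colours for genes. Slc2a3 makes up 82.0% and 84.1% of the transporter pair at day 6, against 22.7% and 28.3% in untreated libraries, and Hk3 keeps most of the hexokinase sum in all 8 libraries.

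The 3 genes whose profile over the 8 libraries lay closest to that of Slc2a3, among 6070 genes with an average log2 CPM of at least 5, were Crispld2, Lcn2 and Padi4. Their root mean square differences from Slc2a3 were 0.18, 0.25 and 0.26 on the log2 CPM scale, after each gene's mean was removed. Lcn2 encodes a siderophore-binding protein of neutrophil granules and Padi4 an enzyme that citrullinates histones. All 3 rose at day 6, by 4.17 (Crispld2), 3.94 (Lcn2) and 3.804 (Padi4) on the log2 scale, which follows from how they were chosen.

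Other hexose transporters were counted for 5 of 11 genes listed. Of these, 3 were higher and 2 lower than in untreated cells at day 6, with 32% of all genes called higher and 31.6% lower. Slc2a6, a transporter of myeloid cells in mice, had 14.5 and 14.3 CPM in untreated libraries, 13.8 and 26.7 CPM at day 2, 87.3 and 92.0 CPM at day 4 and 97.7 and 94.1 CPM at day 6, a log2 change of 2.73 ± 0.20 at day 6 (adjusted p = 3.1e-07, edgeR). Between day 6 and day 4 the change of Slc2a6 was 0.10 ± 0.17 and was not called (adjusted p = 0.701, edgeR), while that of Slc2a3 was 2.72 ± 0.18. Slc2a5, a fructose transporter, stood highest at day 4, with 7.17 and 6.44 CPM, against 1.19 and 1.09 CPM in untreated libraries, and was 1.32 ± 0.30 higher at day 6 on the log2 scale (adjusted p = 0.00233, edgeR). Slc2a13, a proton-coupled myo-inositol transporter, fell to 0.56 and 0.54 CPM at day 6, against 6.39 and 4.86 CPM in untreated libraries (log2 change -3.32 ± 0.41, adjusted p = 2.72e-05, edgeR).

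Hexokinase 3, made from Hk3 (chromosome 13, 55005985 to 55021475), is the isoform of granulocytes and other myeloid cells. Hk3 had 724 and 681 CPM in untreated libraries, 774 and 723 CPM at day 2, 834 and 785 CPM at day 4 and 871 and 920.1 CPM at day 6. Each day 6 library lay above every library of the other groups. The log2 change was 0.35 ± 0.08 at day 6 (adjusted p = 0.00299, edgeR), a 1.27-fold rise, while 0.20 ± 0.08 at day 4 missed the threshold (adjusted p = 0.0597, edgeR). Under total count scaling the day 6 value of Hk3 turned to -0.08 and was not called, with the median of all genes at -0.47, so relative to that median Hk3 stood at 0.39.

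Hexokinase 2 is the inducible isoform, and its gene Hk2 lies on chromosome 6 (82725025 to 82774454). Hk2 had 105 and 125 CPM in untreated libraries, 114 and 127 CPM at day 2, 198 and 186 CPM at day 4 and 234 and 223 CPM at day 6. The untreated and day 2 libraries overlapped, and all day 4 and day 6 libraries lay above them. Hk2 rose by 0.74 ± 0.09 at day 4 (adjusted p = 5.62e-05, edgeR) and 0.99 ± 0.09 at day 6 (adjusted p = 2.96e-06, edgeR), 1.67-fold and 1.99-fold. The step between day 4 and day 2 was called (0.67 ± 0.09, adjusted p = 0.000173, edgeR), and that between day 6 and day 4 was not (0.25 ± 0.09, adjusted p = 0.0625, edgeR), although it was with RLE scaling (0.27, adjusted p = 0.046, edgeR).

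Hexokinase 1, from Hk1 on chromosome 10 (62268855 to 62379920), is the housekeeping isoform. Hk1 had 213 and 189 CPM in untreated libraries, 166.2 and 171 CPM at day 2, 148 and 157 CPM at day 4 and 175 and 186 CPM at day 6. It was lowest at day 4, where the log2 change was -0.40 ± 0.08 (adjusted p = 0.00159, edgeR), and at day 6 it was -0.16 ± 0.08 and not called (adjusted p = 0.109, edgeR). Under total count scaling Hk1 was called lower at day 6 (-0.59, adjusted p = 0.000337, edgeR), and stood at -0.12 relative to the median of all genes. Between day 6 and day 4 Hk1 rose by 0.24 ± 0.08 (adjusted p = 0.0397, edgeR), a call lost in 4 of the 8 fits that left out 1 library, those of the day 4 and day 6 libraries (adjusted p 0.061 to 0.235, edgeR). Hk1 thus fell at day 4 while Hk2 rose, each against the same untreated libraries.

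Among the hexokinases per kilobase, Hk3 made up 76.6 ± 0.42% of the sum in untreated libraries, 79.4 ± 1.45% at day 2, 78.3 ± 0.70% at day 4 and 77.1 ± 0.62% at day 6 (SD, n = 2 each). The share of Hk2 was 11.7 ± 0.76% at day 6 and 7.46 ± 1.18% in untreated libraries, and that of Hk1 was 11.3 ± 0.13% at day 6 and 15.9 ± 0.76% in untreated libraries. Hk1 and Hk2 thus exchanged order in the mean, and at day 6 their levels of 40.1 ± 1.71 and 41.4 ± 1.42 CPM per kb overlapped. The summed hexokinase level was 355 ± 10.9 CPM per kb at day 6 and 280.4 ± 10.3 CPM per kb in untreated cells.

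Adpgk, an ADP-dependent glucokinase outside the hexokinase family, was the other glucose-phosphorylating enzyme among the 14 glycolysis genes counted besides the 10. Adpgk had 52.6 and 64.0 CPM in untreated libraries, 69.5 and 57.1 CPM at day 2, 99.1 and 101 CPM at day 4 and 291 and 387 CPM at day 6. It rose 5.81-fold at day 6 (log2 change 2.54 ± 0.14, adjusted p = 4.3e-08, edgeR). Among these 14 genes 4 were higher (Adpgk, Aldoa, Pgk1 and Pgam2) and 2 lower (Pfkm and Eno3) at day 6, with a median log2 change that rounds to 0.00. Over all genes, 32% were called higher and 31.6% lower at day 6. Aldoa, the aldolase of most tissues, was 0.39 ± 0.08 higher (adjusted p = 0.00146, edgeR) and turned to -0.04 under total count scaling. Gapdh was listed at only 3.23 to 8.21 CPM over the 8 libraries, and 82.5% of the 50-base windows of its transcript also occur in transcripts of other genes, so its level is uncertain. The same share was 68% for Pgk1, called higher above, and 72.2% for Eno1, so their levels are uncertain too.

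Pfkl encodes the liver type of phosphofructokinase, the main type in neutrophils (chromosome 10, 77986947 to 78009807). Its level was 175 and 167.7 CPM in untreated libraries, 157 and 178 CPM at day 2, 168.8 and 148 CPM at day 4 and 107 and 118 CPM at day 6. Libraries up to day 4 overlapped, and both day 6 libraries lay below all of them. Pfkl fell by 0.61 ± 0.09 at day 6 on the log2 scale (adjusted p = 0.000145, edgeR), to 0.66 of the untreated level, and by 0.49 ± 0.09 between day 6 and day 4 (adjusted p = 0.00242, edgeR). The change at day 4 was -0.11 ± 0.09 and was not called (adjusted p = 0.326, edgeR).

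Pfkp encodes the platelet type (chromosome 13, 6579874 to 6649060). Pfkp had 111 and 112 CPM in untreated libraries, 107 and 113 CPM at day 2, 168.3 and 153 CPM at day 4 and 143 and 138 CPM at day 6. It was highest at day 4, and the day 6 libraries lay between the day 4 ones and all others. Pfkp rose by 0.53 ± 0.08 at day 4 (adjusted p = 0.000146, edgeR) and 0.34 ± 0.08 at day 6 (adjusted p = 0.00242, edgeR). Under total count scaling the rise of Pfkp was not called at day 4 (0.28, adjusted p = 0.0875, edgeR) and turned to -0.10 at day 6 (adjusted p = 0.534, edgeR), 0.38 above the median of all genes. Of the 50-base windows of the Pfkp transcript, 17.1% also occur in 1 other gene, and exons of Pitrm1 on the opposite strand overlap 5.58% of the exonic bases of Pfkp, and no source used here gives the strandedness, so reads of this stretch could belong to either gene.

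Pfkm, the muscle type and not among the 10, fell to 20.2 and 17.8 CPM at day 6, against 38.1 and 39.2 CPM in untreated libraries (log2 change -1.03 ± 0.11, adjusted p = 1e-05, edgeR). Skeletal muscle markers, of which 6 of 13 were counted, summed to 14.3 and 16.4 CPM at day 6 and 130 and 164.2 CPM in untreated libraries. Of the 6, 5 were called lower and Tnni2 higher at day 6, with 31.6% of all genes called lower and 32% higher. The part of these markers in the fall of Pfkm was not tested. The Pfkp share of the 3 phosphofructokinases per kilobase was 31.8% and 32.6% in untreated libraries, 33.9% and 32.4% at day 2, 43.9% and 44.2% at day 4 and 50.3% and 48.0% at day 6. The Pfkl share was 53.9% and 52.4% in untreated libraries, 53.4% and 54.4% at day 2, 47.2% and 45.8% at day 4 and 40.4% and 43.9% at day 6. At day 6 Pfkp was ahead of Pfkl in each library, with 35.2 ± 0.95 and 30.3 ± 1.99 CPM per kb, whereas in untreated libraries Pfkl was ahead. The summed level of the 3 genes was 71.7 ± 0.51 CPM per kb at day 6, below the 86.6 ± 0.93 CPM per kb of untreated libraries. The direction of both shares is the same in counts not divided by length, with Pfkp at 51.6% at day 6 and 34.6% in untreated libraries.

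Phosphofructokinase activity is set by fructose 2,6-bisphosphate, which Pfkfb enzymes make and remove. Of 5 genes of this control step, all counted, 2 were higher at day 6 and none lower by edgeR. Over all genes, 32% were called higher and 31.6% lower. Pfkfb4 had 93.9 and 99.1 CPM at day 6, against 56.5 and 53.6 CPM in untreated libraries (log2 change 0.81 ± 0.09, adjusted p = 1.35e-05, edgeR). Pfkfb3, the isoform of high kinase activity, had 99.1 and 108 CPM at day 6, against 68.6 and 79.7 CPM in untreated libraries (log2 change 0.48 ± 0.09, adjusted p = 0.000639, edgeR). Neither was called at day 4.

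The 3 profiles closest to that of Pfkl, the member with the largest fall at day 6, were those of Prkcsh, Iars and Alg8, at root mean square differences of 0.05, 0.05 and 0.06 over the 8 libraries. Prkcsh encodes a subunit of glucosidase II and Iars isoleucyl-tRNA synthetase. Prkcsh fell by 0.55, Iars by 0.54 and Alg8 by 0.54 at day 6 on the log2 scale, which again follows from their choice by profile.

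**Figure D3:**
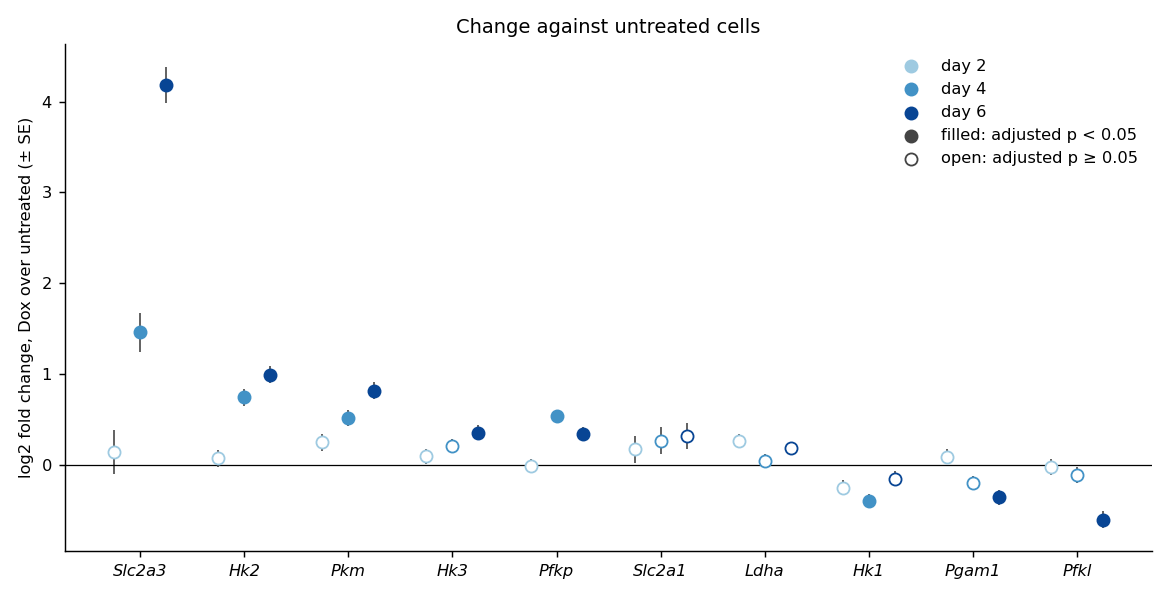
log2 fold change over untreated cells (vertical axis, ± SE) of the 10 genes at days 2, 4 and 6, ordered by the day 6 value, with filled circles for an adjusted p under 0.05. Slc2a3 reaches 4.18 at day 6, and the other 9 genes lie between -0.61 and 0.99 at that day.

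Pgam1 encodes the phosphoglycerate mutase of most tissues (chromosome 19, 41911871 to 41918665). It had 98.1 and 94.5 CPM in untreated libraries, 99.98 and 105 CPM at day 2, 88.6 and 78.4 CPM at day 4 and 73.6 and 76.2 CPM at day 6. The day 6 libraries lay below all others, and the day 4 libraries lay between. Pgam1 fell by 0.36 ± 0.08 at day 6 on the log2 scale (adjusted p = 0.00238, edgeR), while -0.20 ± 0.08 at day 4 missed the threshold (adjusted p = 0.0551, edgeR). Of its 50-base windows, 41.5% also occur in transcripts of 4 other genes, so reads may be split between copies and the level is uncertain. At day 4 without day 4 replicate 1, Pgam1 was called lower (-0.29, adjusted p = 0.0312, edgeR).

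Pgam2, the muscle isoform, was set beside Pgam1 after its values were seen. Pgam2 had 3.49 and 2.93 CPM in untreated libraries, 3.23 and 4.58 CPM at day 2, 7.81 and 11.9 CPM at day 4 and 17.6 and 13.9 CPM at day 6, with 28 to 156 counts per library. It rose 4.89-fold at day 6 (log2 change 2.29 ± 0.26, adjusted p = 1.32e-05, edgeR) and shared none of its windows with other genes. The Pgam2 share of the pair per kilobase was 29.8 ± 3.91% at day 6 and 6.31 ± 0.57% in untreated libraries. In counts not divided by length, the Pgam2 share was 19.3% and 15.5% at day 6 and 3.44% and 3.01% in untreated libraries. The summed level was 58.3 ± 1.85 CPM per kb at day 6 and 56.1 ± 1.82 CPM per kb in untreated libraries. As 41.5% of the Pgam1 windows also occur in other genes, the shares and the sum are uncertain. The 6 skeletal muscle markers counted summed to 14.3 and 16.4 CPM at day 6, against 130 and 164.2 CPM in untreated libraries. Of these, 5 were called lower and Tnni2 higher, with 31.6% of all genes called lower and 32% higher. The part of these markers in the change of Pgam2 was not tested.

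Pkm, the pyruvate kinase gene of tissues other than liver and red cells (chromosome 9, 59656576 to 59679372), was the most abundant of the 10 per kilobase in every group. It had 934 and 810.2 CPM in untreated libraries, 990.2 and 1075 CPM at day 2, 1243 and 1245 CPM at day 4 and 1495 and 1567 CPM at day 6. Groups did not overlap at any step. Pkm rose by 0.51 ± 0.09 at day 4 (adjusted p = 0.00082, edgeR) and 0.81 ± 0.09 at day 6 (adjusted p = 1.47e-05, edgeR), 1.43-fold and 1.76-fold. At day 2 the change was 0.24 ± 0.09 and was not called by edgeR (adjusted p = 0.153) but was by DESeq2 (adjusted p = 0.0426). Under total count scaling the day 6 rise was 0.38 and was called (adjusted p = 0.0232, edgeR), and the day 4 rise was 0.26 and was not (adjusted p = 0.133, edgeR).

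The steps of Pkm between days were smaller, 0.27 ± 0.09 at day 4 over day 2 (adjusted p = 0.0399, edgeR) and 0.30 ± 0.09 at day 6 over day 4 (adjusted p = 0.0308, edgeR). The earlier step lost its call in 5 of the 8 fits without a library and the later step in 4 of 8, those of the day 4 and day 6 libraries (adjusted p 0.101 to 0.192, edgeR). Of the 50-base windows of Pkm, 34.4% occur in 8 other genes, and Gm49759 on the same strand overlaps 15.3% of its exonic bases. Pkm makes the M1 and M2 enzymes by choice of exon, which counts per gene cannot separate. Of 4 splicing factors of this choice, 3 were lower at day 6 (Hnrnpa1, Ptbp1 and Srsf3) and none was higher by edgeR. Over all genes, 31.6% were called lower and 32% higher. Hnrnpa1 had 23.4 and 24.4 CPM at day 6, against 44.7 and 49.1 CPM in untreated libraries (log2 change -0.97 ± 0.11, adjusted p = 1.84e-05, edgeR). Ptbp1 fell by 0.20 and Srsf3 by 0.17 on the log2 scale.

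Ldha, the lactate dehydrogenase subunit that favours lactate formation (chromosome 7, 46842274 to 46855627), had 409.6 and 372 CPM in untreated libraries, 465 and 469.9 CPM at day 2, 408 and 395 CPM at day 4 and 427 and 457 CPM at day 6. The day 4 libraries lay within the untreated range and the day 2 libraries above all others. No change against untreated cells was called by edgeR, with 0.26 ± 0.08 at day 2 (adjusted p = 0.0724), 0.04 ± 0.08 at day 4 (adjusted p = 0.699) and 0.18 ± 0.08 at day 6 (adjusted p = 0.0612). Total count scaling turned the day 4 and day 6 values to -0.21 and -0.26, not called, while DESeq2 called Ldha higher at day 2 (adjusted p = 0.0221) and day 6 (adjusted p = 0.0358), and edgeR with RLE scaling called it higher at day 6 (0.19, adjusted p = 0.0422). Ldha was 0.22 ± 0.08 lower at day 4 than at day 2 on the log2 scale (adjusted p = 0.0413, edgeR), a call lost in 6 of 8 fits without a library. Ldha made up 96.7 ± 0.05% of the summed Ldha and Ldhb level per kilobase at day 6 and 95.1 ± 0.87% in untreated libraries, so the lactate dehydrogenase pair kept its leading gene. Of the 50-base windows of Ldha, 16.6% occur in 14 other genes.

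Lactate leaves the cell through monocarboxylate transporters, and this pair moved in opposite directions. Slc16a1, which encodes MCT1, had 80.5 and 83.7 CPM in untreated libraries, 82.1 and 75.9 CPM at day 2, 38.9 and 36.1 CPM at day 4 and 19.4 and 16.3 CPM at day 6 (log2 change -2.20 ± 0.10 at day 6, adjusted p = 9.14e-09, edgeR). Slc16a3, which encodes the lactate exporter MCT4, had 102 and 92.5 CPM in untreated libraries, 129 and 120.5 CPM at day 2, 141 and 137 CPM at day 4 and 179 and 194 CPM at day 6 (0.94 ± 0.08 at day 6, adjusted p = 1.44e-06, edgeR). The Slc16a3 share of the pair per kilobase, a pair set up after its values were seen, was 94.7 ± 0.90% at day 6 and 67.0 ± 2.18% in untreated libraries. Among 15 counted genes of lactate and pyruvate fate, 3 were higher and 8 lower at day 6, with 32% of all genes called higher and 31.6% lower. Their median log2 change was -0.21, against -0.04 over all genes. Pdp1, the phosphatase that activates pyruvate dehydrogenase, fell by 0.97 ± 0.13 on the log2 scale (adjusted p = 3.88e-05, edgeR). Of its 3 kinases counted, Pdk3 was higher (0.84 ± 0.09, adjusted p = 6.73e-06, edgeR), and Pdk1 (-0.69 ± 0.11, adjusted p = 0.000268, edgeR) and Pdk2 (-0.48 ± 0.14, adjusted p = 0.0124, edgeR) were lower.

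**Figure D4:**
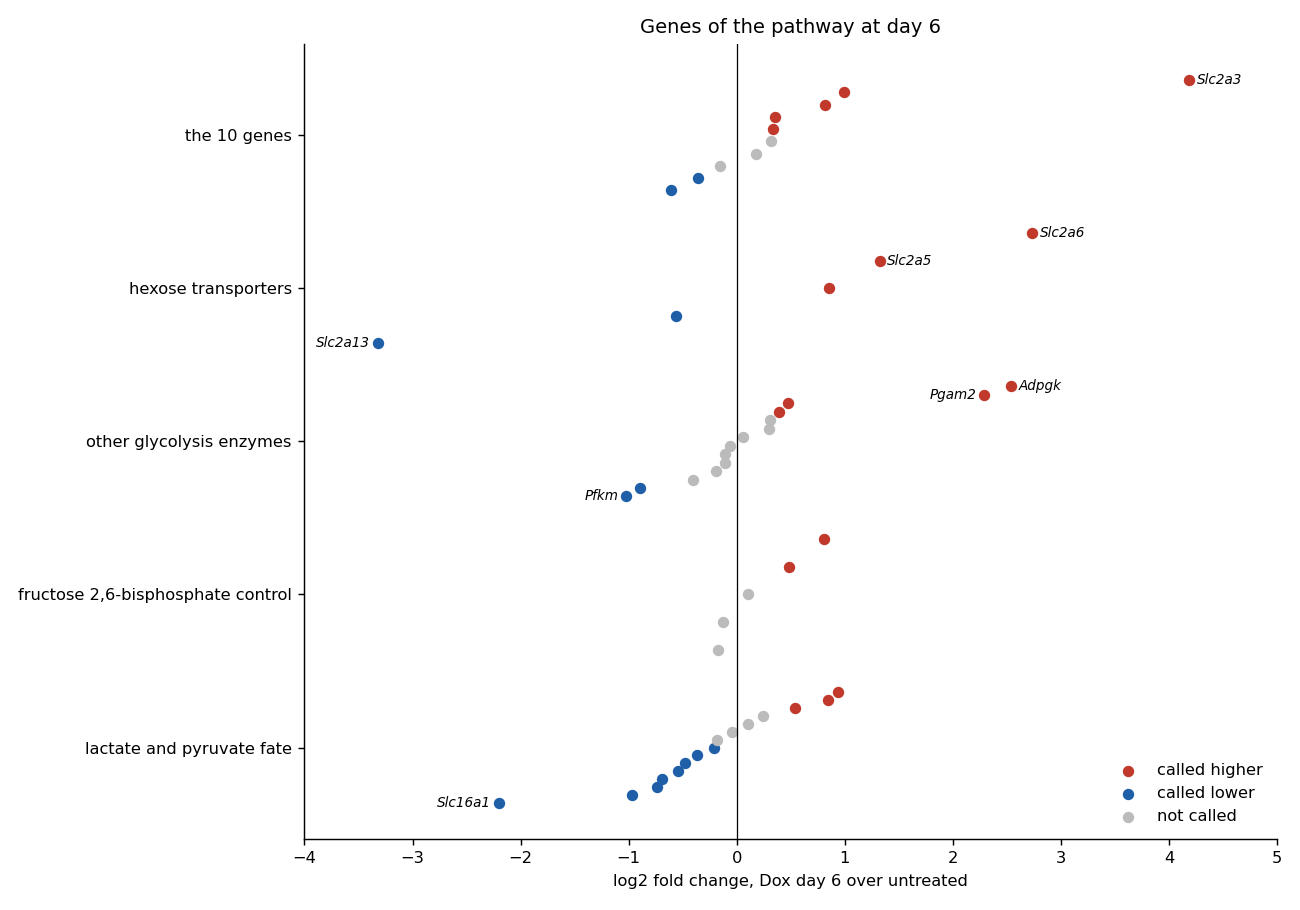
log2 fold change of day 6 over untreated cells (horizontal axis) of the 10 genes and of 4 lists of neighbouring steps, a point per gene, red for called higher, blue for called lower and grey for not called. Slc2a3, Slc2a6 and Adpgk lie farthest to the right and Slc2a13 and Slc16a1 farthest to the left.

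The order of the 10 genes per kilobase in untreated cells was Pkm, Hk3, Ldha, Pgam1, Pfkl, Hk1, Pfkp, Hk2, Slc2a1 and Slc2a3. The libraries of Hk3 and Ldha overlapped, with means of 215 ± 9.11 and 202 ± 13.8 CPM per kb, as did those of Pfkl and Hk1. At day 6 the order was Pkm, Hk3, Ldha, Slc2a3, Hk2, Pgam1, Hk1, Pfkp, Pfkl and Slc2a1. Slc2a3, Hk2, Pgam1 and Hk1 overlapped in a chain of neighbours, with means of 46.6 ± 8.18, 41.4 ± 1.42, 40.9 ± 0.98 and 40.1 ± 1.71 CPM per kb. Pkm averaged 589 ± 19.8 CPM per kb at day 6 and 335 ± 33.6 CPM per kb in untreated cells. Slc2a3 moved by the most places, standing last in the mean in untreated cells and at days 2 and 4 and behind only Pkm, Hk3 and Ldha at day 6. At day 4 its libraries overlapped those of Slc2a1, with means of 7.08 ± 2.29 and 9.06 ± 0.70 CPM per kb.

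Between successive days, 4 of the 10 were called higher (Slc2a3, Hk2, Pfkp and Pkm) and 2 lower (Pgam1 and Ldha) at day 4 over day 2, with 37.6% of all genes called, 21.7% higher and 15.9% lower. At day 6 over day 4, 3 were called higher (Slc2a3, Hk1 and Pkm) and 1 lower (Pfkl), with 29.9% of all genes called, 15.9% higher and 14% lower. Without day 4 replicate 1, day 4 replicate 2, day 6 replicate 1 or day 6 replicate 2, the count called higher at day 6 over day 4 was 1, Slc2a3. Over all 8 fits that left out a library, 3 to 4 members were called higher and 0 to 2 lower at day 4 over day 2; none was lower without day 2 replicate 2 or day 4 replicate 2.

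Among 17 genes known to regulate glycolytic genes, 7 were higher and 5 lower at day 6, with 32% of all genes called higher and 31.6% lower. Myc, which encodes an activator of glycolytic genes, fell to 43.7 and 40.2 CPM at day 6, against 110.0 and 230.4 CPM in untreated libraries (log2 change -2.02 ± 0.33, adjusted p = 0.00024, edgeR). Hif1a, the oxygen-regulated subunit of the hypoxia-inducible factor, had 163.5 and 172.04 CPM at day 6, against 245 and 243 CPM in untreated libraries (-0.54 ± 0.09, adjusted p = 0.000229, edgeR). Egln3, a prolyl hydroxylase that acts on it, had 28.7 and 31.1 CPM at day 6, against 283 and 286 CPM in untreated libraries (-3.25 ± 0.08, adjusted p = 2.41e-10, edgeR). Spi1 rose by 4.39 ± 0.14 (adjusted p = 8.84e-10, edgeR). Of the 10 genes, 5 were called higher (Slc2a3, Hk2, Hk3, Pfkp and Pkm) and 2 lower (Pfkl and Pgam1) at day 6. No link of these changes to the Myc and Hif1a transcripts was tested.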

How the data were processed

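Per the labels' protocols, RNA was extracted from sorted GFP-positive cells with a column kit and libraries followed a standard Illumina protocol. Per the file headers, each deposited table holds a whole-number count per Entrez gene, not normalised by the authors, and a gene length. Tools listed in the submitters' processing notes are featureCounts, CASAVA 1.8.2, limma 3.22.0 and edgeR 3.8.2, with mm10 as the build. Aligner and strandedness: not given in the sources used here. Symbols and coordinates came from RefSeq for GRCm38.p6, the same build, for 12555 of 12830 gene IDs. In every gene the third highest CPM was at least 0.501, so genes of low expression are missing.

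In R 4.3.3, filterByExpr removed 500 genes (0.0267% of counts), TMM scaled the libraries (factors 0.849 to 1.18), and the edgeR 4.0.16 quasi-likelihood test was run with a group means model over all 8 libraries, with Benjamini-Hochberg adjustment over 12330 genes. Residual degrees of freedom were 4 and prior ones 7.08, at a biological coefficient of variation of 8.34%. The procedure was tested on simulated data. Shares and levels between genes are TMM-scaled CPM per kilobase of deposited gene length, given as mean ± SD of 2 libraries, with no test. Within groups, the median chi-square per gene was 0.701 to 5.14, with 0.455 from sampling noise, and it was highest at day 2. The day 2 libraries had TMM factors of 0.937 and 1.12, and the part of scaling in the day 2 value was not tested. All 4 groups lay above the noise value, so no pair was taken as a repeat deposit of 1 library. This does not tell separate preparations of 1 RNA from separate mice, and day 6 lay closest to the noise value. Shared 50-base windows and exon overlaps came from GENCODE transcripts.

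The 10 genes and the lists were chosen with earlier results of these data known. Named genes are the 10, their families, Spi1, Myc, Hif1a, up to 3 called genes per list with the largest change at day 6, and the 3 nearest profiles of the members with the largest rise and fall. Aldoa, Gapdh, Eno1, Pdk1, Pdk2, Pdk3, Txnip and the genes of counts of 5 or fewer were added after their values were seen. Alternatives were RLE and total count scaling, no filter, DESeq2 1.42.0, the replicate number as a block, a fit of only the groups compared, and leaving out each library.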

Additional observations from a re-analysis of the deposited data

How the results depend on the processing

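Over the 10 genes, 5 comparisons and 14 settings, 619 values kept their direction and side of the threshold, 25 gained a call, 31 lost one and 25 changed sign. No call against untreated cells at day 4 or day 6 was lost when a library was left out, and the cause of the changes was not tested.

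Scaling by total counts moved the median log2 change of all genes to -0.17 at day 2, -0.27 at day 4 and -0.47 at day 6, with 170 higher and 658 lower calls (516 and 240 with TMM), 1816 and 4519 (3217 and 2707), and 2078 and 6647 (3942 and 3897). At day 6 over day 4 the median was -0.20, with 881 and 2646 calls (1961 and 1728), and at day 4 over day 2 there were 1870 and 1921 (2681 and 1959). It changed the sign of Slc2a1 (-0.0024), Slc2a3 (-0.0395), Hk2 (-0.11), Hk3 (-0.0917) and Pgam1 (-0.0896) at day 2, Hk3 (-0.0456) and Ldha (-0.21) at day 4, Slc2a1 (-0.12), Hk3 (-0.0835), Pfkp (-0.10) and Ldha (-0.26) at day 6, and Slc2a1 (-0.13), Hk3 (-0.0379) and Ldha (-0.0459) at day 6 over day 4. It called 1 member lower at day 2, 2 higher and 3 lower at day 4, and 3 higher and 3 lower (Hk1, Pfkl and Pgam1) at day 6. At day 4 over day 2 it called Slc2a3, Hk2 and Pfkp higher and 1 member lower, and at day 6 over day 4 it called 1 higher and 2 lower.

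RLE scaling called 2 members lower at day 4 (Hk1 and Pgam1) and added Ldha at day 6 and Hk2 at day 6 over day 4 to those called higher, and DESeq2 called 2 higher at day 2. With only the groups compared, 232 of all genes were called at day 2 (756 over all 8 libraries) and 2 members were lower at day 6 over day 4. Deviations of same-numbered libraries correlated at 0.209 between untreated and day 2 and at -0.13 to 0.062 in the other pairs of groups, so the numbers were not taken as pairs. With the replicate number as a block, 1 member was lower at day 4 over day 2, where Pkm (adjusted p = 0.0625, edgeR) and Ldha (adjusted p = 0.0605, edgeR) were not called, and 1 was higher at day 6 over day 4; the block changed no other member's call. In shares of counts not divided by length, Slc2a3 made up 88.3% at day 6 and 34.5% in untreated libraries, Hk3 68.6% and 68.9%, Pfkp 51.6% and 34.6%, and Ldha 97.8% and 96.7%.

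Leaving out each library gave 325 to 1325 calls over all genes at day 2, 4467 to 5985 at day 4, 6405 to 7932 at day 6, 3215 to 5040 at day 4 over day 2 and 1726 to 4193 at day 6 over day 4. Members called higher numbered 0 to 2 at day 2 (Pkm and Ldha without untreated replicate 1), 4 to 6 at day 4, 5 to 7 at day 6, 3 to 4 at day 4 over day 2 and 1 to 4 at day 6 over day 4. Members called lower numbered 0 at day 2, 1 to 2 at day 4, 2 to 3 at day 6, 0 to 2 at day 4 over day 2 and 1 at day 6 over day 4. In these fits a value changed sign only where it was not called. The ranges were -0.0447 to 0.2022 for Hk2, -0.1201 to 0.0567 for Pfkl and -0.0544 to 0.0306 for Pfkp at day 2, -0.0285 to 0.1152 for Ldha at day 4, -0.0412 to 0.2523 for Slc2a1 and -0.1795 to 0.011 for Pfkl at day 4 over day 2, and -0.0191 to 0.1348 for Slc2a1 at day 6 over day 4. With 2 libraries a group and counts of 100 to 353 for Slc2a3 before day 6, precision is lowest for that gene and Slc2a1.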

Other observations

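Among the genes of glycogen storage and release, the glycogen phosphorylases Pygl and Pygm moved in opposite directions, and Pygl led its family in all groups. Of 13 glycogen genes counted, 6 were higher and 5 lower at day 6 than in untreated cells, with a median log2 change of 0.09. Over all genes, 32% were called higher and 31.6% lower. Pygl, the liver-type glycogen phosphorylase, had 797 and 884 CPM at day 6, against 293 and 269 CPM in untreated libraries (log2 change 1.58 ± 0.11, adjusted p = 3.04e-07, edgeR). Pygm, the muscle type, had 13.3 and 15.2 CPM at day 6, against 86.5 and 86.2 CPM in untreated libraries (-2.60 ± 0.12, adjusted p = 6.31e-09, edgeR). The Pygl share of the 3 phosphorylases per kilobase, a family set up after its values were seen, was 90.4 ± 0.64% at day 6 and 64.3 ± 0.60% in untreated libraries. Skeletal muscle markers summed to 14.3 and 16.4 CPM at day 6 and 130 and 164.2 CPM in untreated libraries, and their part in the fall of Pygm was not tested. Gyg, the primer of glycogen synthesis, had 285 and 298 CPM at day 6, against 109 and 98.7 CPM in untreated libraries (1.49 ± 0.08, adjusted p = 2.93e-08, edgeR).

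Of 10 pentose phosphate genes, 5 were higher and 3 lower at day 6, with 32% of all genes called higher and 31.6% lower. Taldo1, the transaldolase of the non-oxidative branch, had 1042 and 1064 CPM at day 6, against 459 and 398 CPM in untreated libraries (1.30 ± 0.09, adjusted p = 2.3e-07, edgeR). Prps1 fell by 0.68 ± 0.13 (adjusted p = 0.000918, edgeR) and Prps2 by 0.63 ± 0.09 (adjusted p = 9.21e-05, edgeR) on the log2 scale, and both make the ribose precursor of nucleotides. Of 5 gluconeogenic genes counted, 4 were lower and 1 higher at day 6, against the same shares of all genes. G6pc3, the glucose 6-phosphatase of neutrophils and other tissues, had 28.6 and 27.1 CPM at day 6, against 83.2 and 77.9 CPM in untreated libraries (-1.53 ± 0.09, adjusted p = 7.97e-08, edgeR). Fbp1 fell by 1.05 ± 0.19 (adjusted p = 0.000505, edgeR), and the rise of Pcx lay at the threshold.

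Txnip, whose product limits glucose uptake, was lower at day 2 and higher at day 6. It had 164.1 and 153 CPM in untreated libraries, 89.6 and 94.7 CPM at day 2, 152 and 192 CPM at day 4 and 292 and 277 CPM at day 6. Its log2 change was -0.78 ± 0.10 at day 2 (adjusted p = 0.00201, edgeR) and 0.84 ± 0.10 at day 6 (adjusted p = 2.06e-05, edgeR). Of 10 counted targets of hypoxia-inducible factors outside glycolysis, 2 were higher and 3 lower at day 6, with 32% of all genes called higher and 31.6% lower. Vegfa had 44.7 and 52.6 CPM at day 6, against 129 and 165.1 CPM in untreated libraries (-1.59 ± 0.12, adjusted p = 4.64e-07, edgeR). Ddit4 fell by 1.58 ± 0.14 (adjusted p = 1.58e-06, edgeR) and Ndrg1 rose by 1.51 ± 0.09 (adjusted p = 8.54e-08, edgeR) on the log2 scale.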
